A study of Mus musculus with 6 samples.

Results

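The tubulin genes described here are 10 of the 54532 genes in the deposited count table. They comprise 5 alpha-tubulin genes, Tuba1a, Tuba1b, Tuba1c, Tuba4a and Tuba8, and 5 beta-tubulin genes, Tubb2a, Tubb2b, Tubb4b, Tubb5 and Tubb6. They were taken by gene name, and the set was picked around the higher Tubb2a level in the livers labelled Trem2-deficient. The values of that comparison for these genes are therefore given as a description and are not tested. The data are 6 bulk RNA sequencing libraries of whole liver from male mice, all put on a high-fat diet at 8 weeks of age for 8 weeks. Of these, 3 libraries are labelled WT (littermate wild type, replicates 1, 2 and 3) and 3 are labelled KO (Trem2-/-, replicates 4, 5 and 6). Trem2 is a lipid-sensing receptor of macrophages, and the comparison asks how liver transcripts on this diet differ where it is missing. The labels name neither the make of the Trem2 allele nor the number of mice behind a library.

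Microtubules are hollow polymers of alpha- and beta-tubulin dimers. In hepatocytes they carry lipoprotein particles and plasma proteins to the cell surface and position lipid droplets and mitochondria, and in dividing cells they form the spindle. The isotypes share a nearly identical body and differ mainly in the acidic tail at the end of the protein, where enzymes add glutamates and where motors bind. The cell also reads its own pool of free dimers: when free tubulin rises, a factor that recognises the first residues of the growing chain (Ttc5) starts decay of tubulin messages during translation. Tubb5, Tubb4b and Tuba1b are isotypes of most tissues, Tubb2a and Tubb2b are best known from neurons, and Tuba8 from testis and muscle.

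The libraries held 11591021 to 20399361 counts. Hepatocyte markers were abundant in all of them, with 7 genes (1 of 7 higher on average in KO) summing to 72948 to 100636 CPM (counts scaled to a common library size). Trem2 itself had 7, 26 and 26 counts in WT replicates 1, 2 and 3, and 9, 6 and 5 counts in KO replicates 4, 5 and 6. WT replicate 1 thus lay within the KO range. Trem2 counts alone could not tell the groups apart, and every difference below is one between libraries as they are labelled. Mitochondrially encoded genes took 8.16% to 12.7% of the counts in the WT and 28.0%, 9.08% and 19.8% in KO replicates 4, 5 and 6. In the fit over all 13693 genes that passed the count filter (edgeR's quasi-likelihood test), 2 genes were called at an adjusted p under 0.05, both higher in KO, which is 0.0146% of those tested. Counted without adjustment, 1175 genes (8.58%) had p under 0.05. DESeq2 called 1.14% of its genes, edgeR without the count filter 0.248% and limma-voom 0.0073%. Of the tubulin genes 8 of 10 passed the filter, and 0 of these 8 were among the genes called. Tubb2b and Tuba8 had too few reads to enter the fit.

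Of the 8 members tested, Tubb2a had the largest fitted difference between the labelled groups. It stood at 22.9, 24.8 and 27.8 CPM in WT replicates 1, 2 and 3 and at 265, 58.7 and 119 CPM in KO replicates 4, 5 and 6. The WT livers were close to each other and all KO livers lay above them, but the KO livers differed 4.51-fold among themselves. The means were 25.1 ± 2.47 CPM (SD, n = 3) and 148 ± 106 CPM (SD, n = 3), a fitted log2 difference of 2.55 (SE 0.51), or 5.86-fold. Without KO replicate 4 the log2 difference was 1.82, and without KO replicate 5 it was 2.93. These are the values the set was picked on.

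**Figure D1:**
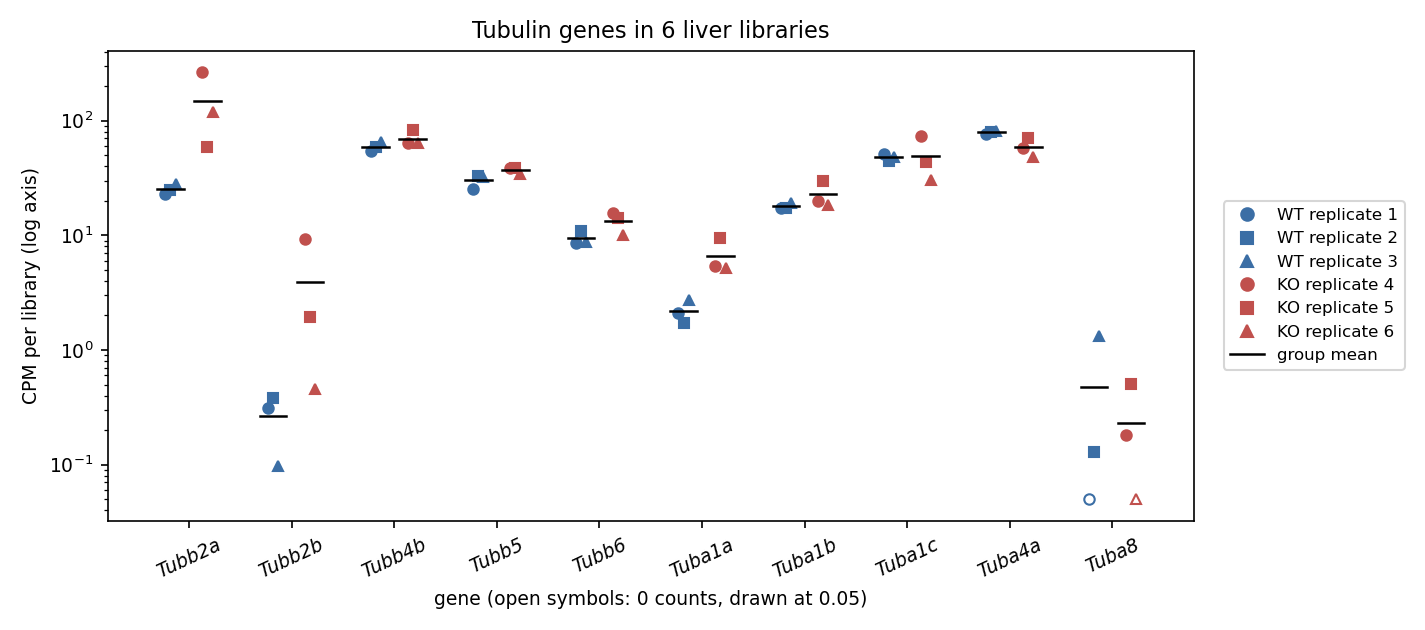
CPM of each tubulin gene in each library on a log axis, with WT libraries in blue, KO libraries in red, 1 symbol shape per replicate and a black bar at the mean of the 3 libraries of a group. Tubb2a lies at 22.9 to 27.8 CPM in WT and 58.7 to 265 CPM in KO, while Tubb4b, Tuba1c and Tuba1b overlap between the groups.

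Tubb2a (ENSMUSG00000058672) lies on the minus strand of mm10 chromosome 13, from 34074274 to 34078007, with 4 exonic blocks in GENCODE vM21. The 250 bases before its RefSeq start site (GRCm38.p6, chr13:34078009-34078258) are printed because Tubb2a carries the difference, beside those of Tubb4b (GRCm38.p6, chr2:25224703-25224952, minus strand), the most abundant beta-tubulin of the WT livers. Both are written 5′ to 3′ on the strand of the gene, and capitals mark matches on either strand to TGACGTCA (the cAMP response element), to the CCAAT box, to the TATA box spelled TATAAA or to the GC box spelled GGGCGG.
Tubb2a: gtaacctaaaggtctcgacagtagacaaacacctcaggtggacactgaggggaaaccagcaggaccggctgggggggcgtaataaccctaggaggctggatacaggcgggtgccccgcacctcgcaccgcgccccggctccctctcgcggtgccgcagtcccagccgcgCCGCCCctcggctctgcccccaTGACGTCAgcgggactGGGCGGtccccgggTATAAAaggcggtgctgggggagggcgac
Tubb4b: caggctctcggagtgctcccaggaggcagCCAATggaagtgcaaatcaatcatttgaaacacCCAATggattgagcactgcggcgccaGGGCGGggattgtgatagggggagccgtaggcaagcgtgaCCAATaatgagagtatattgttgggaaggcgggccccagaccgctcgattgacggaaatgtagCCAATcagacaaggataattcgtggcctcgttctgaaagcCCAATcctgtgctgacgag
The Tubb2a window held 1 TGACGTCA starting 59 bases before the start site, 1 TATAAA at 29 bases and 2 matches to GGGCGG, and no CCAAT. The Tubb4b window held 5 CCAAT and 1 GGGCGG and neither of the others. Over 32851 RefSeq promoter windows of the same length, TGACGTCA was found in 1.55%, TATAAA in 12.4%, CCAAT in 33.8% and GGGCGG in 32.7%. Of the other members with an entry (8 of 10 matched in all), none held TGACGTCA or TATAAA. GENCODE exons of the same gene covered 202 of the 250 bases for Tuba1a, 175 for Tuba1b and 119 for Tuba4a. They covered 38 for Tuba8, 5 for Tubb5 and 0 for Tuba1c, Tubb2a and Tubb4b. A window with exon bases is only partly upstream of the annotated gene, which limits what a missing match there means. The shorter TGACG, searched as well and found in 17.8% of windows, had 2 matches in the Tubb2a window, both inside its TGACGTCA, and 2 in that of Tubb4b. The letters CACGTG, in 6.02% of windows, had 0 matches in both. These 2 motifs are not capitalised. A match to these letters is a description of the window and shows no binding.

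The other tested genes around Tubb2a had smaller fitted differences. The 6 other tested genes within 250 kb of it had log2 differences from −0.33 to 0.36. Tubb2b also lies in this window but did not pass the count filter. Its ratio of mean CPM, KO over WT, was 14.7, and its counts are given below. Bphl, a hydrolase gene next to the end of Tubb2a, stood at 155 CPM in WT and 123 CPM in KO on average, with a log2 difference of −0.33 (SE 0.37, edgeR adjusted p = 0.771). Ripk1, a kinase of inflammatory cell death, had −0.19 (SE 0.21, edgeR adjusted p = 0.768). Whether these differences differ from that of Tubb2a was not tested.

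**Figure D2:**
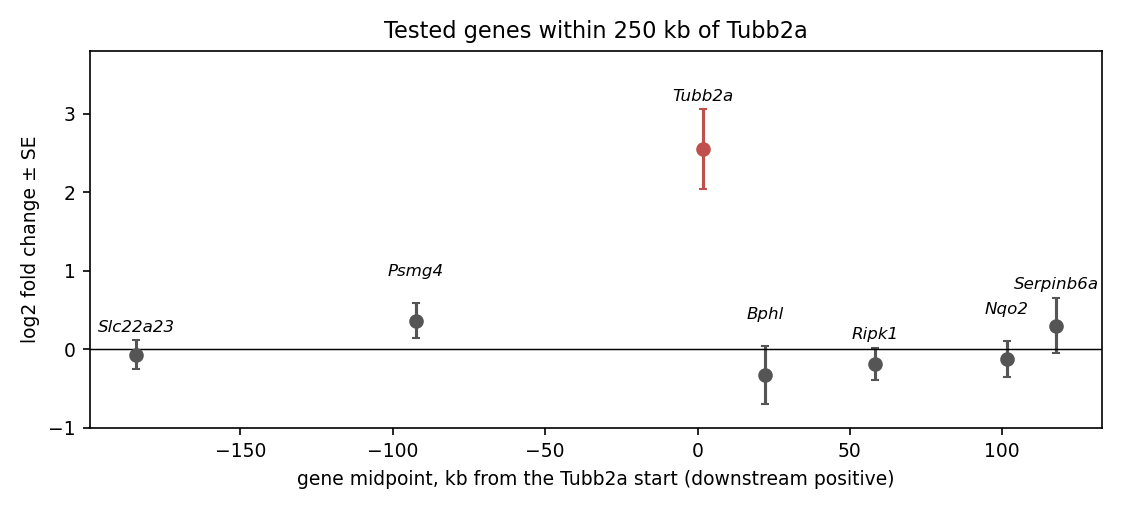
Fitted log2 difference of KO-labelled over WT-labelled livers, with its standard error, for Tubb2a (red) and the 6 other tested genes within 250 kb, by distance of the gene midpoint from the Tubb2a start in kb. Tubb2a stands at 2.55 and the 6 other tested genes between −0.33 and 0.36. Tubb2b lies in the same window but did not pass the count filter and is not drawn.

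Tubb2b, the closest relative of Tubb2a, was rare in WT livers and uneven in KO livers. It lies on the same strand, with 48.7 kb between the genes (ENSMUSG00000045136, chromosome 13, 34126748 to 34130466). It had 5, 6 and 2 counts in WT replicates 1, 2 and 3 and 102, 42 and 7 counts in KO replicates 4, 5 and 6. In CPM this is 0.312, 0.384 and 0.0973 against 9.26, 1.95 and 0.460, so that KO replicate 6 lay just above the WT livers and KO replicate 4 far above all others. The 95% exact Poisson interval of the 7 counts in KO replicate 6, which covers counting error only, runs from 2.81 to 14.4 counts and includes the WT counts of 5 and 6. The ratio of mean CPM was 14.7 and rests largely on KO replicate 4.

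Reads of this pair can be exchanged, because the coding sequences are 96.5% identical over 1338 bases. The first 4 codons, which the decay machinery reads as protein, and the last 20 codons before the stop, which encode the isotype tail, show how little separates the pair. In the first set capitals mark the codons after the start, and in the second they mark codons unlike those of Tubb2a, in GENCODE vM21 transcripts.
Tubb2a start: atgCGCGAGATC
Tubb2b start: atgCGAGAGATC
Tubb4b start: atgAGGGAGATC
Tuba1a start: atgCGTGAGTGC
Tubb2a tail: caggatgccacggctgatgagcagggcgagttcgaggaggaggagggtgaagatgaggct
Tubb2b tail: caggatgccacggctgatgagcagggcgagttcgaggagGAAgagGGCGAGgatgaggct
Tubb4b tail: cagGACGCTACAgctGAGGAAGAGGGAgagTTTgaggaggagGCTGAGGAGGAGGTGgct
In the tail Tubb2b differed from Tubb2a at 3 of 20 codons, all of which encode the same residues as in Tubb2a. Tubb4b differed at 13 codons, of which only some change the residue. Of all 100-base stretches of the Tubb2a transcript 35.9% occur unchanged in Tubb2b, and 26.1% of those of Tubb2b in Tubb2a. Tubb4b and Tubb6 shared 0 such stretches with any other member. The labels do not say how reads that match several genes were counted. Per 100 counts of Tubb2a, Tubb2b had 1.36, 1.55 and 0.350 counts in WT replicates 1, 2 and 3. It had 3.50, 3.31 and 0.386 in KO replicates 4, 5 and 6. The ratio was not the same in all libraries, and its WT values rest on 5, 6 and 2 counts of Tubb2b. The part of exchanged reads in it was not tested.

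The 3 other beta-tubulins differed far less between the groups. Tubb4b, the general isotype that also builds cilia (ENSMUSG00000036752, chromosome 2, 25222160 to 25224702), stood at 54.3, 59.0 and 64.6 CPM in WT and 63.3, 82.6 and 63.3 CPM in KO. The groups overlapped, and the fitted log2 difference was 0.23 (SE 0.20). Tubb5, the isotype of nearly all dividing cells (ENSMUSG00000001525, chromosome 17, 35833921 to 35838306, 12.5 megabases from Trem2), stood at 25.4, 32.8 and 32.3 CPM in WT and 38.6, 38.4 and 34.4 CPM in KO. All KO livers lay above the WT livers by a small step, at a log2 difference of 0.30 (SE 0.19). Tubb6, an isotype of muscle and macrophages among other cells (ENSMUSG00000001473, chromosome 18, 67390717 to 67402748), stood at 8.54, 10.9 and 8.75 CPM in WT and 15.5, 14.1 and 10.1 CPM in KO. KO replicate 6 lay inside the WT range, and the log2 difference was 0.49 (SE 0.24).

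Among the alpha-tubulins, Tuba1a was higher and Tuba4a lower in all KO-labelled livers. Tuba1a, the main alpha-tubulin of developing neurons (ENSMUSG00000072235, chromosome 15, 98949837 to 98953703), had 34, 27 and 56 counts in WT and 59, 204 and 79 counts in KO. In CPM it stood at 2.12, 1.73 and 2.72 in WT replicates 1, 2 and 3 and 5.36, 9.45 and 5.19 in KO replicates 4, 5 and 6. The groups did not overlap, and KO replicate 5, the lowest KO liver for Tubb2a, was the highest here. The log2 difference was 1.60 (SE 0.36), or 3.04-fold. It was 1.25 without KO replicate 5 and 1.03 on the log2(FPKM + 1) scale, which understates changes of low genes.

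Tuba4a, an alpha-tubulin whose gene encodes no terminal tyrosine (ENSMUSG00000026202, chromosome 1, 75214228 to 75219865), was the one tested member fitted lower. It stood at 76.3, 80.2 and 81.9 CPM in WT and 58.3, 70.4 and 48.6 CPM in KO. The WT livers were close together and every KO liver was below them, at a log2 difference of −0.43 (SE 0.21). Tuba1b, the alpha-tubulin of most tissues (ENSMUSG00000023004, chromosome 15, 98931425 to 98934565), stood at 17.1, 17.4 and 19.2 CPM in WT and 20.1, 30.0 and 18.5 CPM in KO. Its groups overlapped through KO replicate 6, and the log2 difference was 0.36 (SE 0.24). Tuba1c (ENSMUSG00000043091, chromosome 15, 99029891 to 99038110) stood at 51.0, 44.6 and 48.2 CPM in WT and 74.0, 43.8 and 30.1 CPM in KO. The KO livers lay on both sides of the WT livers, and the log2 difference of 0.04 (SE 0.32) changed sign with the library left out, from −0.38 without KO replicate 4 to 0.29 without KO replicate 6. Tuba8 (ENSMUSG00000030137, chromosome 6, 121210696 to 121226854) was near the limit of detection, with 0, 2 and 27 counts in WT and 2, 11 and 0 counts in KO. By the usual limit of 3 counts, which is one-sided and so lower than the upper end of the exact interval used for Tubb2b, a count of 0 allows up to 0.187 CPM in WT replicate 1 and 0.197 CPM in KO replicate 6.

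The Tuba1 genes lie within 107 kb on chromosome 15 and their reads can also be exchanged. Their coding sequences were 98.3% identical for Tuba1a and Tuba1b, 97.6% for Tuba1a and Tuba1c and 98.4% for Tuba1b and Tuba1c, against 85.3% for Tuba1a and Tuba4a. Of the 100-base stretches of the Tuba1a transcript 38.4% occur in another member, of Tuba1b 52.3% and of Tuba1c 53.4%, while Tuba4a and Tuba8 shared 0. Within a library, where scaling has no part, Tuba1a had 12.4, 9.96 and 14.2 counts per 100 of Tuba1b in WT and 26.7, 31.5 and 28.0 in KO. This ratio was closely alike among the KO livers and did not overlap between the groups. Summed, Tuba1a, Tuba1b and Tuba1c came to 31.9 ± 2.22 FPKM in WT and 36.7 ± 10.1 FPKM in KO (SD, n = 3 each), and the groups overlapped.

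Of the 8 members tested, 7 were fitted higher in KO, with a median log2 difference of 0.33, against 49.1% fitted higher and a median of −0.01 over all genes tested. The median is over members that passed the filter and is not a value of all 10. In 3 of the 8 (Tubb2a, Tubb5 and Tuba1a) all KO livers lay above all WT livers, which holds for 8.12% of all tested genes, and in 1 (Tuba4a) they lay below, which holds for 5.73%. The choice of the set used this contrast, and nothing is read from these counts. In WT livers the 8 tested members had a median coefficient of variation of 9.28%, up to 22.9% for Tuba1a, and the untested Tubb2b and Tuba8 had 56.4% and 151%. This stands beside 24.4% over the 12538 tested genes of at least 1 CPM, which were not matched to the members on level. In KO livers the medians were 24.2% and 23.7%.

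The highest KO liver was not the same for all isotypes. KO replicate 4 had the highest KO level of Tubb2a, Tubb2b, Tubb5, Tubb6 and Tuba1c. KO replicate 5 had the highest of Tubb4b, Tuba1a, Tuba1b, Tuba4a and Tuba8. KO replicate 6 was the highest for 0 of the 10 members and the lowest KO liver for all but Tubb2a, sharing that place with KO replicate 4 for Tubb4b.

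Levels of different genes were compared per length, in FPKM (fragments scaled to gene length and library size, as deposited). In WT livers Tubb4b was the most abundant member at 28.5 ± 1.94 FPKM (SD, n = 3), followed by Tuba4a at 21.6 ± 0.319 and Tuba1c at 21.1 ± 1.88, whose ranges overlapped. Tubb2a came next at 15.7 ± 1.26 FPKM, below Tuba1c in every WT liver. Tuba1b at 9.59 ± 0.492 and Tubb5 at 9.10 ± 1.06 FPKM overlapped each other, Tubb6 stood at 5.38 ± 0.691 and Tuba1a at 1.22 ± 0.273. Tuba8 and Tubb2b were lowest, at 0.210 ± 0.317 and 0.116 ± 0.0655 FPKM, and overlapped. In KO livers Tubb2a had the highest mean, 90.2 ± 65.2 FPKM, with a range of 35.4 to 162 FPKM that overlapped that of Tubb4b, 29.9 to 38.3 FPKM. Neighbours in the KO order overlapped except Tubb5 above Tubb6 and Tubb6 above Tuba1a. The ratio of Tubb2a to Tubb4b was 0.546, 0.544 and 0.557 in the WT livers and 5.43, 0.922 and 2.44 in KO replicates 4, 5 and 6. In the WT livers it was thus almost fixed, and in the KO livers Tubb2a passed Tubb4b in 2 of 3.

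The beta-tubulin pool was larger in the KO livers and the alpha-tubulin pool was not. The 5 beta members summed to 54.7, 59.4 and 62.4 FPKM in WT and 216, 93.5 and 119 FPKM in KO. The 5 alpha members summed to 55.1, 51.0 and 55.1 FPKM in WT and 61.0, 57.8 and 38.6 FPKM in KO, on both sides of the WT range. Beta over alpha was 0.993, 1.17 and 1.13 in WT and 3.54, 1.62 and 3.09 in KO, with no overlap. Of the mean beta increase of 84.1 FPKM, Tubb2a made up 74.5 FPKM, or 88.6%. The set was picked around Tubb2a, so the larger beta sum and the higher ratio largely restate that choice. Without Tubb2a the beta sum was 43.1 ± 2.82 FPKM in WT and 52.7 ± 6.15 FPKM in KO (SD, n = 3 each), a ratio of 1.22.

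**Figure D3:**
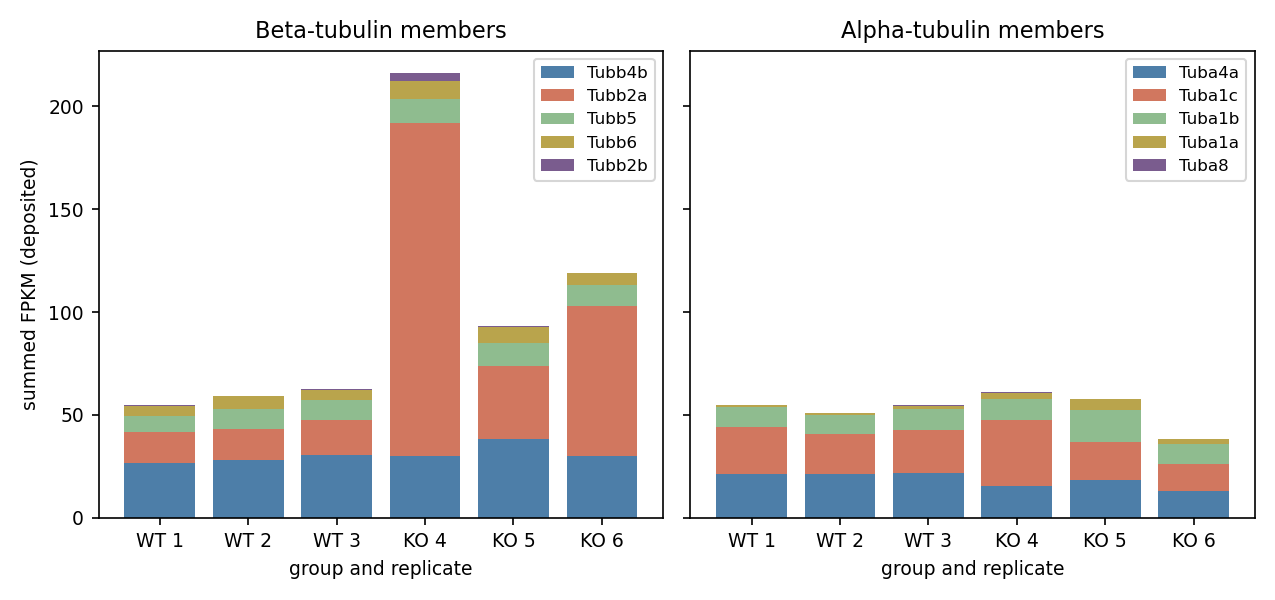
Deposited FPKM of the 5 beta-tubulin (left) and 5 alpha-tubulin members (right), stacked per library. The beta stack reaches 216 FPKM in KO replicate 4 through the Tubb2a segment, while the alpha stack stays between 38.6 and 61.0 FPKM in all 6 libraries.

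The make-up of the pools differed accordingly. Tubb2a was 26.9%, 25.7% and 27.4% of the beta sum in WT and 75.0%, 37.8% and 61.3% in KO. Tubb4b was 48.5 ± 1.17% in WT and 26.7 ± 13.7% in KO, although its own level was not lower. In the alpha sum Tuba1a was 2.26 ± 0.430% in WT and 6.99 ± 2.02% in KO, and Tuba4a 40.2 ± 1.73% and 30.3 ± 4.31% (SD, n = 3 each). A share falls whenever another member of the pool is higher, and these shares are of RNA, not of protein.

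Some other features of the libraries differed between the groups or shared the KO order of Tubb2a. In bulk tissue a change in cell numbers and a change in RNA per cell cannot be told apart. The order of the KO livers for Tubb2a (replicate 4, then 6, then 5) was also that of the mitochondrially encoded share. Endothelial markers summed to 149 to 175 CPM in WT and to 323, 227 and 278 CPM in KO replicates 4, 5 and 6, the same order, with 7 of 7 markers higher on average in KO. In the WT livers neither of these orders was that of Tubb2a. Macrophage markers (8 of 8 higher on average) summed to 101 to 133 CPM in WT and 168 to 228 CPM in KO. Stellate cell and fibroblast markers (6 of 8 higher on average) summed to 149 to 172 CPM in WT and 384, 429 and 174 CPM in KO replicates 4, 5 and 6. Proliferation markers (7 of 8 higher on average) summed to 28.0 to 37.4 CPM in WT and 40.9 to 59.5 CPM in KO. Biliary markers (4 of 6 higher on average) overlapped, at 39.9 to 78.4 and 56.8 to 74.9 CPM. Of the neuronal markers Snap25 and Nefl had 0 counts in all libraries, and the list of neuronal and ciliated cells summed to 7.73 to 16.8 CPM in WT and 5.45 to 9.36 CPM in KO. Lymphocyte markers (3 of 8 higher on average) summed to 7.17 to 7.73 CPM in WT and 2.69 to 7.81 CPM in KO, and neutrophil and platelet markers (2 of 6) to 6.32 to 11.7 and 6.99 to 10.6 CPM. Erythroid markers (3 of 5) summed to 159 to 250 CPM in WT and 189 to 313 CPM in KO. The KO order of replicate 4, then 6, then 5 was also that of the biliary, lymphocyte, and neutrophil and platelet sums. In these 3 lists the groups overlapped. Total counts ran in the reverse order, at 11591021, 19653758 and 15915618 in KO replicates 4, 5 and 6. The order is thus not particular to the mitochondrial share and the endothelial markers. The macrophage, stellate cell, proliferation and erythroid sums had other orders in KO. The part of any of these in the tubulin values was not tested.

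**Figure D4:**
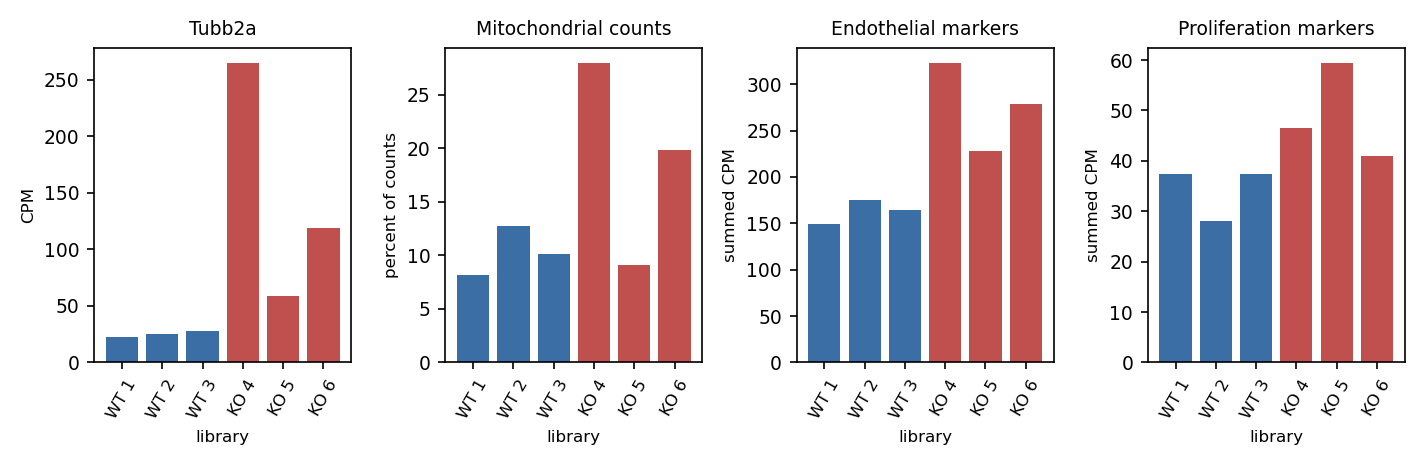
Tubb2a in CPM, the mitochondrially encoded share in percent of counts, and the summed CPM of 7 endothelial and 8 proliferation markers in each library, WT in blue and KO in red. KO replicate 4 is highest and KO replicate 5 lowest of the KO libraries in the first 3 panels, and KO replicate 5 is highest in the fourth.

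Genes with a pattern most like that of Tubb2a were sought by Pearson's r of log2 CPM over the 6 libraries among 11534 other protein-coding genes. The 5 nearest were Cadm3, Cdca3, Cyp3a59, Gypc and Camk1, with r from 0.98 to 0.99. Cyp3a59, a cytochrome P450, stood at 5.61, 7.17 and 8.70 CPM in WT and 32.5, 11.0 and 21.0 CPM in KO. Cdca3, a gene of cell division, stood at 1.93, 2.11 and 2.04 CPM in WT and 5.90, 3.52 and 4.33 CPM in KO. For Tuba1a the 5 nearest were Ndn, Cdh5 (the endothelial cadherin), Ubtd1, Mfge8 and Pgp, with r from 0.98 to 0.99. For Tuba1b the nearest was Nid1, a basement membrane protein. For Tubb5 the 5 nearest were Tspan5, Hspg2 (also a basement membrane protein), Crip1, Rilpl1 and Pdgfrb (a stellate cell receptor). The nearest was Mgme1 for Tubb4b, Prr5 for Tubb6, Pdss1 for Tuba1c and Gtf3c4 for Tuba4a. All these values share the 6 libraries and their depth, and with so few libraries many genes reach such an r.

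The remaining tubulin genes were scarce, apart from gamma-tubulin. Tubg1, which nucleates microtubules at the centrosome, stood at 39.6, 25.7 and 27.0 CPM in WT and 26.3, 33.2 and 29.3 CPM in KO (log2 −0.06, SE 0.23, edgeR adjusted p = 0.943). Tubd1, delta-tubulin of centrioles, had a log2 difference of 0.19 (SE 0.36, edgeR adjusted p = 0.869) and Tube1, epsilon-tubulin, of −0.83 (SE 0.50, edgeR adjusted p = 0.658). Tubb4a had 3, 2 and 7 counts in WT and 4, 32 and 1 counts in KO, and Tubb1, the platelet isotype, 4, 2 and 5 counts against 0, 1 and 0. Tubb3, the neuronal isotype, had 8 counts and Tubg2 9 counts over all 6 libraries, and Tuba3a, Tuba3b and Tubal3 had 0.

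Genes that fold, modify and bind tubulin were followed together with the other tubulins, actin and intermediate filament genes, in 11 lists of 181 entries, of which 155 were tested. With the count filter, edgeR called 0 of the 155 over all genes (lowest adjusted p 0.297), and without it 2 as higher (Vim and Des). At an unadjusted edgeR p under 0.05, 25 of the 155 were higher and 1 was lower. Over all 13693 genes tested, 735 (5.37%) were higher and 440 (3.21%) lower. Of the 25, 9 were mitotic spindle, 8 actin and 4 intermediate filament genes. Several of the rarest spindle genes entered the fit through their KO counts, and rare genes of other lists can have done so. The lists were also chosen with earlier results of these data known, so nothing is read from these counts. DESeq2 called 3 as higher (Capg, Vim and Des), limma-voom 0, and limma-voom with sample quality weights 36 higher and 14 lower, where that setting called 29.7% of all genes.

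Tubulin folding and mRNA decay genes were fitted in both directions. Of 22 genes of prefoldin, the CCT chaperonin and the tubulin cofactors, 9 were fitted higher and 13 lower, with a median log2 difference of −0.08. Arl2, a GTPase of the cofactor complex, stood at 6.68 ± 1.48 CPM in WT and 10.1 ± 2.61 CPM in KO (log2 0.59, SE 0.28), and Vbp1, a prefoldin subunit, had −0.80 (SE 0.43). The decay factor Ttc5 stood at 6.17, 9.16 and 7.34 CPM in WT and 11.3, 6.72 and 8.27 CPM in KO (log2 0.21, SE 0.28). Cnot11, a subunit of the deadenylase complex, had 0.16 (SE 0.19). The groups overlapped for Ttc5 and for Cnot11.

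Modifying and nucleating genes had medians of 0.17 over 16 tested genes (12 fitted higher) and 0.19 over 11 (8 fitted higher). Ttl, the ligase that returns the terminal tyrosine to alpha-tubulin, stood at 5.01 ± 0.977 CPM in WT and 7.32 ± 1.08 CPM in KO (log2 0.55, SE 0.27). Ttll12, of the same family, had 0.46 (SE 0.26). Cdk5rap2, which activates gamma-tubulin complexes, stood at 2.90 ± 0.416 CPM in WT and 5.90 ± 1.71 CPM in KO (log2 1.01, SE 0.33, edgeR adjusted p = 0.457). Tubgcp2, a subunit of those complexes, had 0.58 (SE 0.29).

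Microtubule-binding proteins, severing enzymes and motors had medians between −0.07 and 0.21, beside −0.01 for all genes. Of 20 binding and end-binding proteins tested, from a list of 23, 12 were fitted higher (median 0.21). Mapre3, an end-binding protein, stood at 43.2, 66.1 and 39.7 CPM in WT and 107, 56.0 and 105 CPM in KO, where KO replicate 5 lay within the WT range, and Clip2, a plus-end linker, had a log2 difference of 0.95 (SE 0.37). Of 8 destabilising and severing enzymes tested, from a list of 14, 7 were fitted higher (median 0.15). Fignl1, also a DNA repair factor, had 3, 15 and 9 counts in WT and 17, 25 and 17 counts in KO. Its log2 difference was 1.26 (SE 0.61). Genes this rare can enter the fit through their KO counts, so nothing is read from the number fitted higher in these lists. Of 23 genes of interphase motors 10 were fitted higher and 13 lower (median −0.07). Dynll1, a dynein light chain, stood at 16.9, 14.7 and 11.1 CPM in WT and 28.4, 23.1 and 23.8 CPM in KO (log2 0.82, SE 0.23, edgeR adjusted p = 0.4), and Ndel1, a dynein regulator, had −0.64 (SE 0.27).

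Genes of the mitotic spindle were mostly at low levels. All 17 tested of 23 were fitted higher (median 1.33), beside 49.1% of all genes tested. In 10 of the 17 all KO livers lay above all WT livers, which holds for 8.12% of all tested genes. Kifc1, a spindle motor, stood at 0.259 ± 0.0982 CPM in WT and 1.51 ± 0.583 CPM in KO (SD, n = 3 each) (log2 2.51, SE 0.56), and Tpx2, which nucleates microtubules around chromosomes, had 2.05 (SE 0.48). Over the whole list, with no filter, 22 of 23 had a higher mean CPM in KO. Several of the rarest entered the fit through their KO counts, so neither the counts nor the median over the 17 are those of the list, and nothing is read from them. The other filament systems gave a median of 0.29 over 21 actin genes (12 fitted higher) and 0.46 over 11 intermediate filament genes (10 fitted higher). Capg, an actin-capping protein of macrophages, stood at 1.37, 1.09 and 1.12 CPM in WT and 4.90, 4.17 and 3.87 CPM in KO (log2 1.85, SE 0.33, edgeR adjusted p = 0.297), and Tpm4, a tropomyosin, had 0.70 (SE 0.19). Vim, the mesenchymal filament, had 1.66 (SE 0.35) and Des, the filament of stellate and muscle cells, 1.91 (SE 0.48). Whether any list differed from the tubulin members was not tested.

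**Figure D5:**
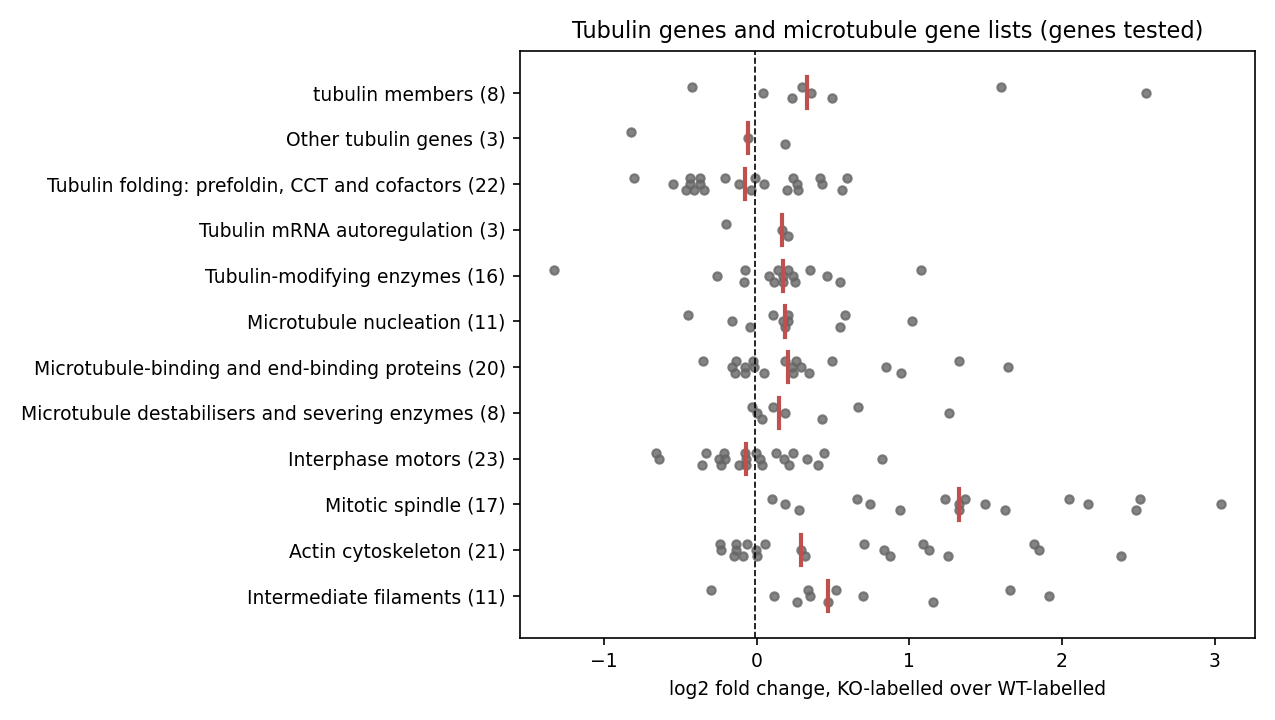
Fitted log2 difference of KO-labelled over WT-labelled livers for each tested gene (grey points) of the tubulin members and 11 lists, with the number tested in brackets, the list median in red and the median of all 13693 genes as a dashed line. Medians of the tubulin folding and motor lists lie at −0.08 and −0.07, that of the members at 0.33 and that of the mitotic spindle at 1.33.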

How the data were processed

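Trizol-extracted RNA of frozen liver was made into 6 TruSeq libraries, per the labels' protocols. The submitters' processing notes list HISAT2 2.0.5 with featureCounts 1.5.0-p3, and DESeq2 1.16.1, on mm10; they state no roles, strand or multi-mapping setting. Read counts per gene are raw in the authors' deposited table, and a second table deposited by the authors gives FPKM, used for levels between genes and as an alternative. Groups came from sample titles. The fit used edgeR 4.0.16 in R 4.3.3 (TMM scaling, filterByExpr, quasi-likelihood test, Benjamini-Hochberg adjustment over 13693 genes at 0.05). Each SE was derived from the fold change and its F statistic, and log2 CPM for correlations used a prior count of 2. The biological coefficient of variation was 34.7%. Every pair of libraries differed by a chi-square per degree of freedom of at least 42.3, so none was a copy. The libraries did not all group by label on this measure, which uses raw counts and grows with depth. KO replicate 5 was nearest WT replicate 3 (53.7, against 209 and 143 to KO replicates 4 and 6). WT replicate 2 had similar values with KO replicate 6 (74.4) and WT replicate 3 (80.1). As depths differ, these are too close to rank. KO replicates 4 and 6 were nearest each other (42.3), and WT replicate 1 was nearest WT replicate 3 (94.2). Separate animals are not stated, and p-values may cover technical spread only. The script was tested on simulated data. Alternatives changed the scaling, the count filter, the library set and the tool (limma 3.58.1, DESeq2 1.42.0, or log2 of the deposited FPKM). GENCODE vM21 (GRCm38) gave the same positions as the count table for 9 of 10 members, with Tubb6 the exception. Intervals and floors cover counting error only. Named genes are all members, the 2 of each list with the smallest p (edgeR with the count filter called none of them; 1 of these is not reported here), other tubulin genes with at least 10 counts, and genes among the 5 most alike. Tubb3, Tubg2, the tubulin genes at 0, Bphl and Ripk1 were named after their values were seen. The members and lists were chosen with earlier results of these data known.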

Additional observations from a re-analysis of the deposited data

How the results depend on the processing

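The number of genes called over the whole table depended on the tool: 2 in edgeR, 1 with library size alone, 61 without the count filter, 169 in DESeq2, 1 in limma-voom, 4063 in limma-voom with sample quality weights, 1 on log2(FPKM + 1) and 4 on log2(FPKM + 0.1). With 1 library left out it ranged from 0 to 1. Of the tubulin members, DESeq2 called 3 of 10 (Tuba1a, Tubb2a and Tubb2b, where it called 1.14% of genes), the fit without the count filter 1 of 10 (Tubb2a, at 0.248%) and limma-voom with sample quality weights 3 of 8 (Tuba1a, Tuba4a and Tubb2a, at 29.7%); the members were picked on this contrast. The cause was not tested. The log2 difference of Tubb2a stayed positive in all 15 alternatives, from 2.19 to 2.55 over scalings, filters and tools and from 1.82 (without KO replicate 4) to 2.93 (without KO replicate 5) with 1 library left out. The median over the tested members ranged from 0.11 to 0.33 and from 0.19 to 0.42. Tuba1a, Tuba1b, Tuba4a, Tubb4b, Tubb5 and Tubb6 also kept their direction in all 15, while Tuba1c kept it in 9 of 15. Shares within a pool do not depend on the library scaling. Depth limits Tubb2b and Tuba8, with 164 and 42 counts in all. No paired analysis was possible because the WT and KO libraries share no replicate numbers.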
